A study of Mus musculus with 9 samples.

Results

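In total, 8 genes that write, read or erase histone acetylation were examined in the peak lists of a mouse T-cell lymphoma: the acetyltransferases Ep300, Crebbp, Kat2a, Kat2b and Kat5 and the deacetylases Hdac1, Hdac2 and Hdac3. They were chosen by name, as a list of 8 genes among 21883 protein-coding genes of the RefSeq annotation (GRCm38.p6). Peaks were read within 1 kb of each gene's start and over its body. No stand-alone bromodomain gene is on the list, so acetyl-lysine reading is represented by the bromodomains that p300, CBP, GCN5 and PCAF themselves carry. The chromatin came from thymic lymphomas, driven by MYCN, that arose in mice of the strain C57BL/6J. The promoter that drives MYCN, and the animal behind each immunoprecipitation, are not given in the sources used here. Chromatin was profiled by ChIPmentation, a chromatin immunoprecipitation in which a transposase adds the sequencing adapters to antibody-bound chromatin. There were 7 antibodies with 1 library each, and the 2 input libraries of the series were not analysed here.

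Acetyltransferases move acetyl groups onto lysines of histone tails, a state that goes with open chromatin and transcription, and histone deacetylases take them off again. p300 and CBP, the products of Ep300 and Crebbp, are large paralogous coactivators that acetylate H3K27 at enhancers and promoters. GCN5 (Kat2a) and PCAF (Kat2b) are paralogs that work in the SAGA and ATAC complexes, and TIP60 (Kat5) acetylates H4 and H2A variants in the NuA4/TIP60 complex. HDAC1, HDAC2 and HDAC3 are class I deacetylases, the first pair in the NuRD, Sin3 and CoREST complexes and the third in the NCoR/SMRT complex. MYC proteins are known to recruit GCN5 and TIP60 complexes to their targets, and in thymocytes HDAC1 and HDAC2 are known to guard genome stability.

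The lists held from 9798 peaks (N-MYC) to 123056 peaks (H3K27me3), and the read depth behind each is unknown. All 10 T-cell marker genes examined (Cd3d, Cd3e, Cd3g, Cd247, Lck, Tcf7, Bcl11b, Cd2, Cd5 and Cd28) had both H3K4me3 and H3K27ac at the start. H3K4me3 was called at 2 of 7 B-cell markers (Cd79a and Cd79b), at 1 of 7 myeloid markers (Cd14) and at 1 of 8 thymic epithelial and stromal markers (Epcam), and H3K27ac at 4, 3 and 4 of them. In such bulk samples, fewer cells with a mark and less mark per cell cannot be told apart. Fold enrichments are the authors' values for each peak and are compared only within a list. With 1 library per antibody no difference has a replicate check, so no p-value is given and the share over all protein-coding genes serves as background.

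The Kat5, Kat2a, Crebbp and Hdac2 promoters below were chosen because they carry an E-box or meet an N-MYC peak. That of Ep300 is shown as the start of the gene for the profiled factor, and its N-MYC peak, at 81585595 to 81585874, ends before the sequence begins. Each runs 5′ to 3′ on the gene's own strand from 250 bases before to 50 bases after the listed start (RefSeq, GRCm38.p6). Capitals mark the E-box CACGTG (the classical MYC/MAX site), CACGCG, the ETS core CCGGAAG or the GC box GGGCGG, each searched on both strands. RefSeq promoters were matched for 6 of the 8 genes, Hdac1 and Hdac3 being the others.
Kat5, upstream listed start, chr19:5610045-5610344, minus strand: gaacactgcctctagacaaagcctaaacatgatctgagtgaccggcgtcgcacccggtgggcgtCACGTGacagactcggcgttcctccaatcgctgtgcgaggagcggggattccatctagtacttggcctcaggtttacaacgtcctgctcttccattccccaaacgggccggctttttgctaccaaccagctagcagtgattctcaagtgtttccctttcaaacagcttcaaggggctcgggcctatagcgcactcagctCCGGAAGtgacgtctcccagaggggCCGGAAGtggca
Kat2a, chr11:100712418-100712717, minus strand: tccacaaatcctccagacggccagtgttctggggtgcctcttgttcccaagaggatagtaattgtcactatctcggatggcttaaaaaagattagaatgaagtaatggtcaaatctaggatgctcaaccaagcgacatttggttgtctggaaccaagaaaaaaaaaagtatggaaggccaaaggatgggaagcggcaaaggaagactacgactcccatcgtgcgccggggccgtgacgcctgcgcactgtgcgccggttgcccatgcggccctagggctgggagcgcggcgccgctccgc
Crebbp, chr16:4213355-4213654, minus strand: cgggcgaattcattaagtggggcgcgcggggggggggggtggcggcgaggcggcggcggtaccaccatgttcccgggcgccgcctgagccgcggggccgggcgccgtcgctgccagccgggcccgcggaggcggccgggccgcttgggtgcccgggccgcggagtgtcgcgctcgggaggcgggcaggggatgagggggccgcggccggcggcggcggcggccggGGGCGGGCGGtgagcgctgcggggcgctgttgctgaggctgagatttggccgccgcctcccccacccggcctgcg
Hdac2, chr10:36974294-36974593, plus strand: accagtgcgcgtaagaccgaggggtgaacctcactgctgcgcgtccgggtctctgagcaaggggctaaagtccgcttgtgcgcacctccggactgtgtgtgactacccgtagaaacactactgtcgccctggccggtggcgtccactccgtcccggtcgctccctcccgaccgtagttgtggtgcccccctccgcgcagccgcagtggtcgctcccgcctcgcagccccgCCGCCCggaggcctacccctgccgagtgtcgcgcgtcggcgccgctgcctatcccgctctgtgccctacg
Ep300, chr15:81585964-81586263, plus strand: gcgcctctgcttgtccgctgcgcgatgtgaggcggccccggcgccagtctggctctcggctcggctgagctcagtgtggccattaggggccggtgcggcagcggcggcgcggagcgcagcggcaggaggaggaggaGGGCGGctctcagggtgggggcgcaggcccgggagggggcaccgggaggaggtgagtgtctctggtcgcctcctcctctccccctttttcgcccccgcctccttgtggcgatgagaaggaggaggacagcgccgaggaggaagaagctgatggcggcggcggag
Among the 8 listed promoters of these genes (Kat2b and Kat5 have 2 each), CACGTG occurred only in the upstream Kat5 promoter, with its first base at −186 relative to the start. The same promoter held the ETS core at 13 and 38 bases after the start, and none of the 8 held CACGCG. Over 32851 listed promoters, 7.15% held CACGTG, 9.27% CACGCG, 8.86% the ETS core and 35.7% the GC box. In the 7079 promoters that met an N-MYC peak, the shares were 13.9%, 25.2%, 22.1% and 74.1%. In 4924 promoters that met H3K4me3 but no N-MYC peak they were 6.54%, 11%, 16.6% and 57.7%, so active promoters without N-MYC also held the ETS core and the GC box more often than all promoters. The Crebbp, Kat2a and Hdac2 promoters met an N-MYC peak and held neither CACGTG nor CACGCG, whereas the Kat5 promoter with CACGTG met none. The N-MYC summits of Kat2a and Hdac2, and the weaker N-MYC peak of Crebbp, lay outside the sequences searched. Whether the sequence there holds either motif was not tested. The Crebbp, Kat5 and Hdac2 promoters shown had the GC contents 82.0%, 57.0% and 69.7%, that of Ep300 had 72.3% and that of Kat2a 54.3%, against a median of 52.7% over all listed promoters. The first Kat2b promoter had the lowest GC content of the 8, with 47.0% GC and 11 CpG dinucleotides, against 49 CpG in Crebbp and 30 in Ep300. The median over all listed promoters was 7 CpG, and the second Kat2b promoter had 6.

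All 8 genes had H3K4me3, the mark of active promoters, and H3K27ac at the start, and none had SUZ12 or H3K27me3 there. Over all protein-coding genes, H3K4me3 was called at 51.0% of starts, H3K27ac at 51.6%, SUZ12 at 13.6% and H3K27me3 at 25.8%. p300 was called at 7 of the 8 genes, Hdac2 being the exception, against 39.3% of all genes. EZH2 was called at 6 of 8 (45.7% of all genes), with Kat2a and Kat5 lacking it, and N-MYC at 6 of 8 (32.9% of all genes), with Kat5 and Hdac1 lacking it. Ep300, Crebbp, Kat2b and Hdac3 thus had all 5 of EZH2, N-MYC, p300, H3K27ac and H3K4me3 without a Polycomb feature, a set found at 24.4% of protein-coding genes. The other 4 each had a set of their own: N-MYC and p300 without EZH2 at Kat2a (4.24% of genes), p300 without EZH2 or N-MYC at Kat5 (2.64%), EZH2 and p300 without N-MYC at Hdac1 (5.17%), and EZH2 and N-MYC without p300 at Hdac2 (0.608%). Because active promoters carry most of these features, the counts are also read against the 11152 genes with H3K4me3 at the start, of which 73.7% had EZH2, 64.1% N-MYC, 76.5% p300, 93.3% H3K27ac, 10.1% SUZ12 and 15.3% H3K27me3. Read against those shares, the counts of 6 of 8 for EZH2 and N-MYC, 7 of 8 for p300, 8 of 8 for H3K27ac and 0 of 8 for SUZ12 and H3K27me3 were all near what such promoters show.

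**Figure D1:**
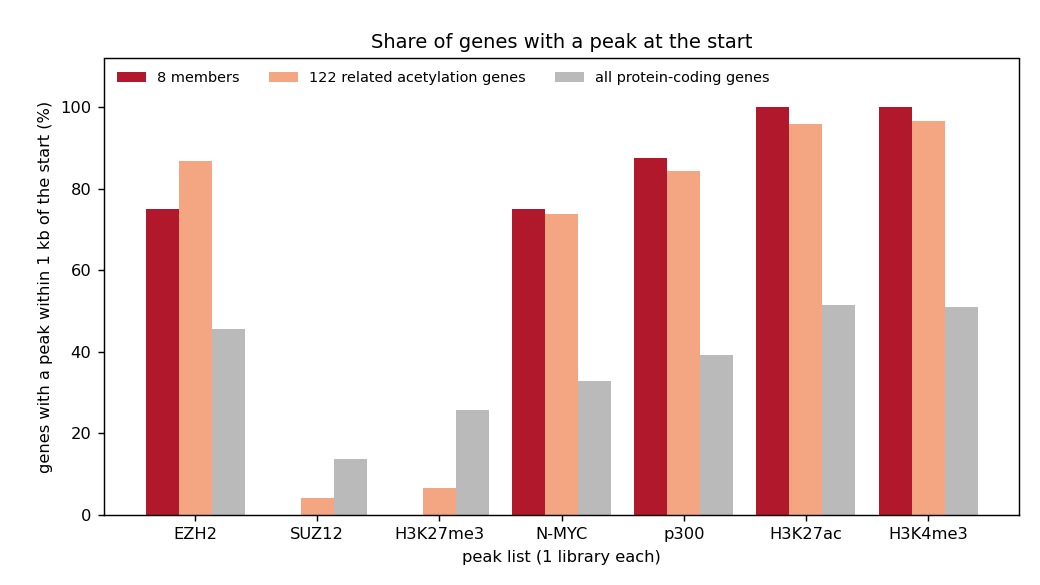
Bars give the share of genes (%) with a peak within 1 kb of the start in each of the 7 lists, for the 8 acetylation genes, 122 related acetylation genes and all protein-coding genes; there is 1 library per list and no error bar. The members stand at 8 of 8 for both active marks and at 0 of 8 for SUZ12 and H3K27me3, where all genes stand at 13.6% and 25.8%.

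Ep300 (gene 328572, chromosome 15, 81586209 to 81652077), which encodes the profiled factor p300, had a p300 peak at its own start with a fold enrichment of 6.76, at percentile 77.6 of the 8590 genes called for p300. Its H3K27ac peak of 33.6 was at percentile 99.5 of the called genes, the highest of the 8, and its H3K4me3 peak of 33.5 was at percentile 74.0. EZH2 reached 7.31 (percentile 73.6). N-MYC was called at 3.96, percentile 9.7, the lowest N-MYC value among the 6 genes with a call. Ep300 thus paired one of the strongest acetylated promoters with a weak N-MYC peak, which was lost at a fold enrichment of at least 4 or a q-value of at most 1e-05.

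Crebbp (gene 12914, chromosome 16, 4081334 to 4213957), which encodes CBP, had the same 5 lists with other strengths. EZH2 was called at 10.5 (percentile 94.2) and H3K27ac at 23.2 (percentile 91.7). The p300 peak was weaker than at Ep300, with 4.90 at percentile 39.4, and H3K4me3 was at 22.6, percentile 37.8. N-MYC formed 2 peaks here, of 6.58 and 5.40, the stronger at percentile 59.4 of called genes. Within each list, the paralogs stood in opposite order for N-MYC and EZH2 (higher at Crebbp) and for p300, H3K27ac and H3K4me3 (higher at Ep300).

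Kat2a (gene 14534, chromosome 11, 100704746 to 100712485), the gene of GCN5, had N-MYC at 6.12 (percentile 51.8) and no EZH2 call. Its p300 peak was the weakest of the 7 called, with 3.16 at percentile 2.1, and it was lost under both stricter thresholds and in lists of equal length. H3K27ac was at 14.9 (percentile 63.6) and H3K4me3 at 19.7 (percentile 29.6). Its paralog Kat2b (gene 18519, chromosome 17, 53566774 to 53672721), the gene of PCAF, had the highest EZH2 value of the 8, with 10.6 at percentile 94.5, and the highest H3K4me3 value, with 43.7 at percentile 97.5. Kat2b had N-MYC at 4.87 (percentile 28.4), p300 at 5.50 (percentile 52.7) and H3K27ac at 12.4 (percentile 50.8). The H3K4me3 peak of Kat2b spanned 4589 bp, wider than 96.5% of the peaks in that list, and that of Ep300 spanned 4234 bp (94.9%). The members of this pair therefore differed in whether EZH2 was called at all, while H3K27ac was within a few units of fold enrichment.

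Kat5 (gene 81601, chromosome 19, 5603014 to 5611556), the gene of TIP60, was the only member with neither EZH2 nor N-MYC at its starts, which lie at 5610094 and 5609744. It had p300 at 5.40 (percentile 51.9) and a high H3K27ac peak of 22.8 (percentile 90.9). Its H3K4me3 peak of 12.9, percentile 16.4, was the lowest of the 8. The nearest EZH2 (4.38) and N-MYC (5.92) peaks lay 721 and 745 bp beyond its lower end, at Rnaseh2c, whose body ends 54 bp from Kat5. Reading either gene end in place of listed starts would assign both to Kat5 and would drop its p300 call.

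The starts of Hdac1 and Hdac3 were read at both gene ends. Hdac1 (gene 433759, chromosome 4, 129516104 to 129542646) had EZH2 (4.85), p300 (4.02), H3K27ac (9.87) and H3K4me3 (38.3) at its upper end and no N-MYC at either end. Its lower end lies 122 bp from Marcksl1 and met H3K4me3 (39.1) and H3K27ac (3.73) only. An N-MYC peak of 4.52 stood at Marcksl1, 1933 bp outside Hdac1, and entered its window at 2 kb. Hdac2 (gene 15182, chromosome 10, 36974297 to 37001889) had EZH2 at 6.11 (percentile 55.5), N-MYC at 4.32 (percentile 16.4), H3K27ac at 12.4 (percentile 50.9) and H3K4me3 at 30.6 (percentile 63.9). No p300 peak was called within 3 kb of the Hdac2 gene. Hdac3 (gene 15183, chromosome 18, 37936971 to 37955015) had EZH2 (4.41), N-MYC (6.12), p300 (4.77), H3K27ac (8.45) and H3K4me3 (17.5) at its upper end, 38 bp from the neighbouring gene Rell2. Of 2 p300 peaks there, the one overlapping Hdac3 had 3.12, and the stronger lay beyond the gene. The EZH2 call of Hdac3 was lost in lists of equal length. Peaks of Hdac3 and of Rell2 cannot be told apart. The lower end of Hdac3 met only H3K27ac (11.3), from a peak at Diaph1. The EZH2, p300 and H3K27ac values of the deacetylase genes lay between percentiles 15.8 and 55.5, with those of Hdac1 and Hdac3 taken at the stronger end. For H3K27ac at Hdac3 that is the peak at Diaph1. H3K4me3, read in the same way, ranged wider, at percentiles 89.6 (Hdac1), 63.9 (Hdac2) and 24.6 (Hdac3). For Hdac1 that is the lower-end peak of 39.1, with its summit outside the gene on the side of Marcksl1, beside 38.3 at the upper end.

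**Figure D2:**
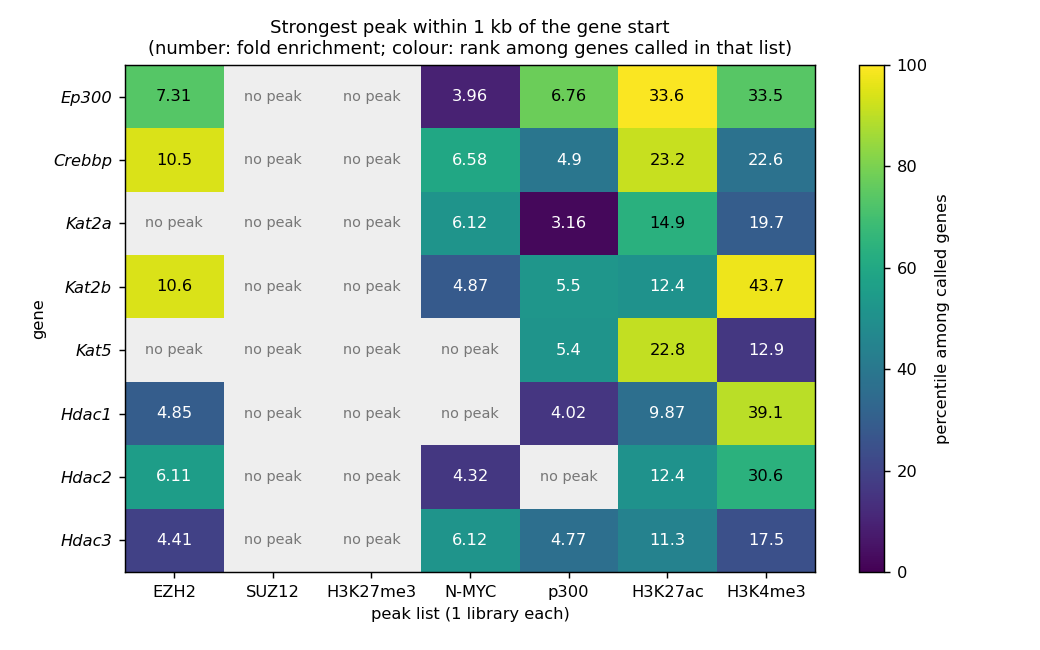
Each cell gives the fold enrichment of the strongest peak within 1 kb of the start (rows: genes; columns: the 7 lists; for Hdac1 and Hdac3 the stronger of both gene ends), and the colour gives its percentile among all genes called in that list, with grey for no peak. Bright cells are H3K27ac at Ep300 (33.6), H3K4me3 at Kat2b (43.7) and EZH2 at Crebbp (10.5) and Kat2b (10.6), and the SUZ12 and H3K27me3 columns are empty.

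The share of genes called in a list differed with H3K4me3 strength, so each gene was set beside the 500 genes closest to it in H3K4me3 fold enrichment. Around Hdac2, 93% of such genes had p300 and 76.6% had N-MYC, so the missing p300 call was the less common state. Around Hdac1, 84.4% had N-MYC, which Hdac1 lacked. The genes around Hdac1 were matched to its lower-end H3K4me3 value of 39.1, beside 38.3 at its upper end. Around Kat2a 54.6% had EZH2, and around Kat5 39% had EZH2 and 40.6% N-MYC, so the missing calls at these genes were common states for promoters with that much H3K4me3. The genes around Kat5 also had H3K27me3 at 36.2% and SUZ12 at 22.6% of starts, and Kat5 had neither, so they match it in H3K4me3 alone. Around Crebbp, 64.0% had EZH2, and around Ep300 and Kat2b 96.6% and 98.2% did.

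The positions of the summits differed between genes. At Ep300 the EZH2, N-MYC, p300 and H3K4me3 summits lay within 29 bp of one another, from −451 to −422 bp relative to the listed start, with H3K27ac at −590 bp. At Kat2b the EZH2 and N-MYC summits were 4 bp apart, 344 and 340 bp downstream of the start, and p300 had summits on both sides, at −372 and +730 bp. The EZH2 and N-MYC summits at Crebbp were 58 bp apart, and the p300 summit lay 675 bp from that of EZH2. Hdac2 and Hdac3 had both factors in separate peaks, with a gap of 226 bp at Hdac2 and 120 bp at Hdac3, and their strongest summits lay 726 and 433 bp apart. Among 5981 protein-coding genes with both EZH2 and N-MYC at the start, the peaks overlapped in 93.4% and the strongest summits were a median of 324 bp apart. EZH2 and p300 peaks overlapped at all 5 members that had both, as at 97.1% of such genes, and N-MYC and p300 peaks at all 5 that had both, as at 98.6%. At Hdac3 the overlap of EZH2 and p300 came only from a weaker EZH2 peak (3.69) beyond the upper gene end. The strongest EZH2 and p300 summits lay 1509 bp apart there.

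**Figure D3:**
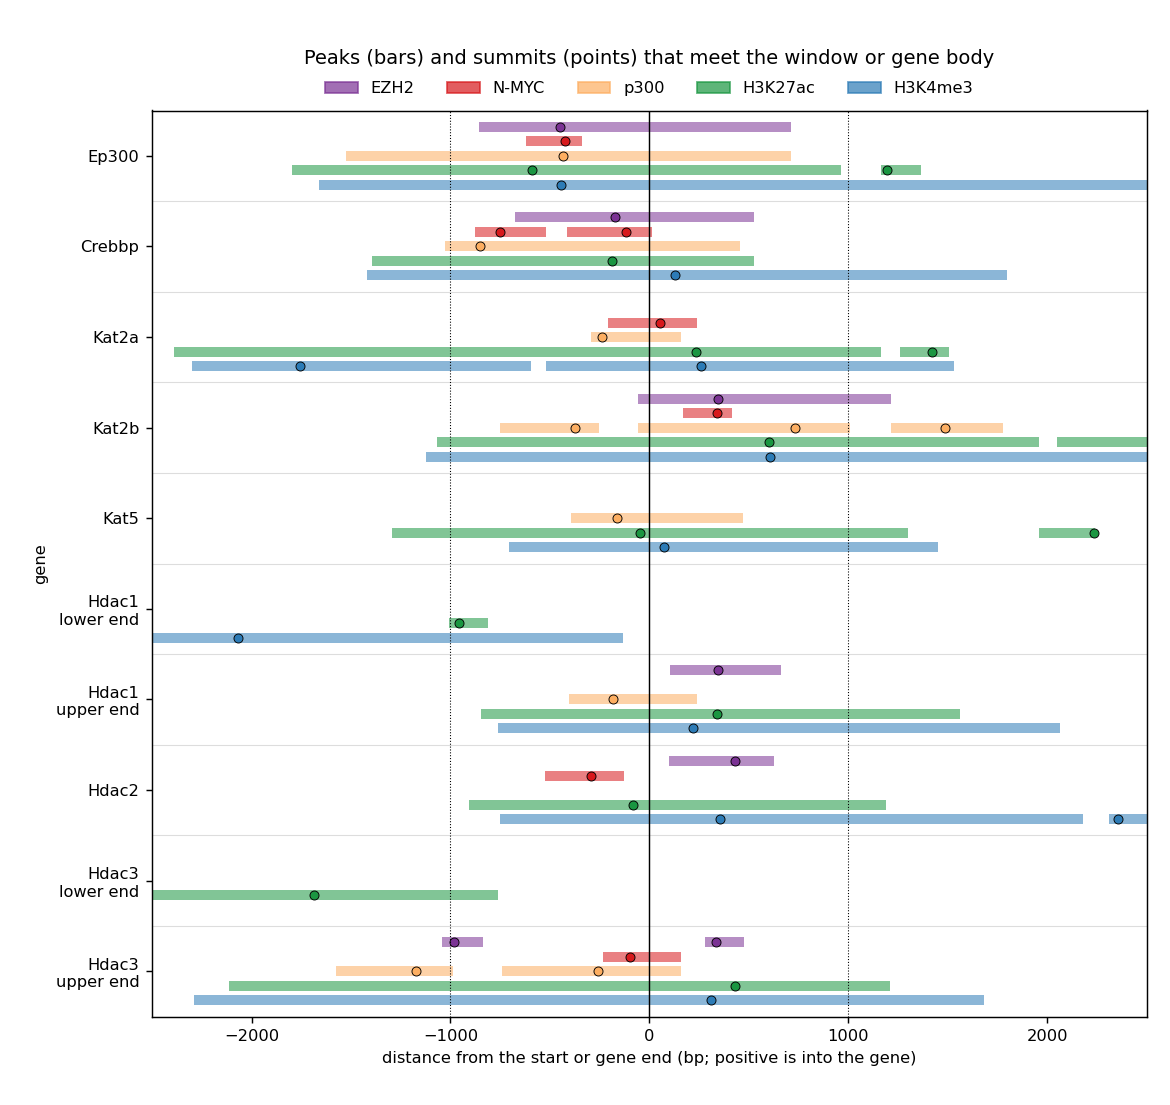
Bars show peaks and points their summits for 5 lists, by distance (bp) from the first listed start, or from the lower and upper gene end for Hdac1 and Hdac3; positive values run into the gene and dotted lines mark 1 kb. Summits coincide at Ep300, from −451 to −422 bp for 4 lists, while EZH2 and N-MYC bars are apart at Hdac2 and Hdac3; peaks that meet neither the window nor the gene body are not drawn.

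Over the gene bodies, which sum to 392.9 kb, no SUZ12 or H3K27me3 peak was called in any of the 8 genes, against 14.9% and 30.1% of all protein-coding genes. In genes whose length was within a factor of 2 of each member's, the share with H3K27me3 ran from 26.7% for Kat2a to 49.0% for Crebbp, and with SUZ12 from 11.9 to 27.8%. The nearest H3K27me3 peak was 2.3 kb from Crebbp, 13 kb from Kat2a and 22.1 kb from Ep300, and from 39.6 kb (Kat5) to 127.4 kb (Hdac2) from the others, with a median of 16.1 kb over all genes. The nearest SUZ12 peak was 962.3 kb from Kat2b, farther than for 89.0% of genes, 917.1 kb from Crebbp and 558.2 kb from Ep300, against a median of 125 kb over all genes. It was nearer than that median at Kat5 (40.7 kb), Kat2a (64.1 kb) and Hdac3 (67.7 kb), and close to it at Hdac2 (132.7 kb) and Hdac1 (137.3 kb).

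Body counts of the active lists mostly repeated the starts. EZH2 was met in 6 bodies (47.0% of all genes), N-MYC in 5 (35.3%), p300 in 7 (42%), H3K27ac in 8 (57.9%) and H3K4me3 in 8 (54.0%). Outside the start windows, no EZH2 or N-MYC peak lay in any of the 8 bodies, and p300 did so only in Kat2b. With 1 kb trimmed from the start side of each annotated gene, EZH2 was met in 2 bodies (Crebbp and Kat2b), N-MYC in 0 and p300 in 3 (Crebbp, Kat2b and Kat5). At Crebbp, and for EZH2 at Kat2b, these were the peaks at the start, which reach past the trimmed stretch. At Kat5 the p300 peak was also that at the start, because both listed starts lie farther into the annotated gene than the trimmed 1 kb. These calls therefore add no peak deeper in the gene.

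Most H3K27ac peaks away from the start lay in Kat2b, Kat2a and Kat5. Of 26 such peaks in the 8 genes, 16 lay in Kat2b, 4 in Kat2a, 4 in Kat5, 1 in Ep300 and 1 in Hdac1, and none in Crebbp, Hdac2 or Hdac3. Of 3755 genes of like length, 88% had fewer such peaks than Kat2b, and the median was 1. For their length Kat2a and Kat5 stood at least as far out by count, with fewer peaks in 93.6% and 92.7% of like genes and a median of 0. These peaks were mostly weak, against a median of 4.04 over all H3K27ac peaks. Those of Kat2a had fold enrichments from 3.17 to 4.48. Those of Kat5 had 2.46, 2.94 and 3.42, apart from the peak of 14.2 at Rnaseh2c, which is included in the count. Counted from the first start alone, Kat2b had 17 H3K27ac peaks farther than 1 kb in, from 3.8 to 52.1 kb, with fold enrichments from 2.53 to 14.9. The farthest was also the weakest, and the others reached no farther than 29.4 kb. The strongest, at 53586292 to 53588778 on chromosome 17, lay 20.8 kb into the gene, overlapped a p300 peak of 4.03 and had neither H3K4me3, EZH2 nor N-MYC. Its H3K27ac value of 14.9 was above that of the Kat2b start, 12.4. Crebbp, at 132.6 kb the longest of the 8, had H3K27ac at its start alone, while 57.4% of genes of its length had such a peak away from the start. Kat2a and Kat5 are short genes, of 7.7 and 8.5 kb, with H3K27ac at both ends, and the H3K27ac (14.2) and H3K4me3 (28.9) peaks at the far end of Kat5 were those at Rnaseh2c. Exons and introns were not analysed here.

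**Figure D4:**
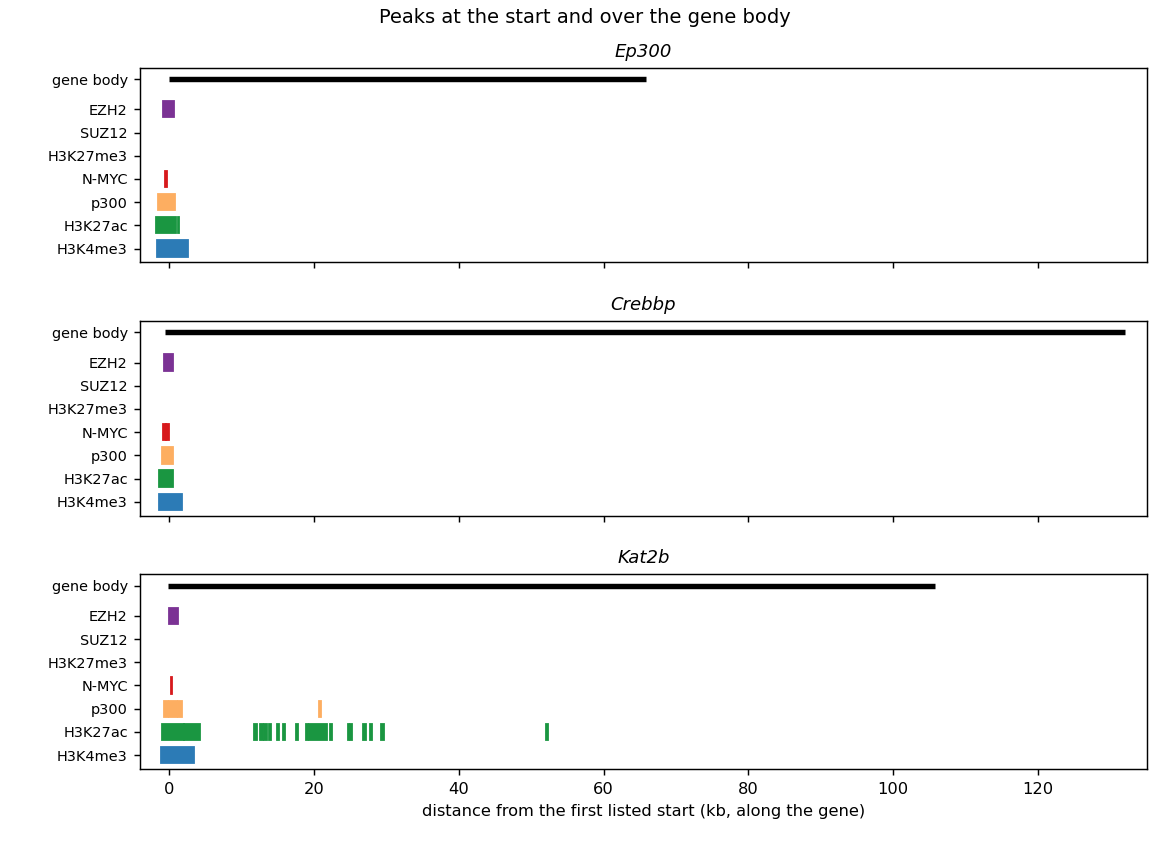
Peaks of the 7 lists are drawn along Ep300, Crebbp and Kat2b by distance (kb) from the first listed start, to one scale, with the black bar for the gene body and a thin outline around each peak so that short ones can be seen. Ep300 and Crebbp carry peaks at the start alone apart from 1 short H3K27ac peak beside the Ep300 start. Kat2b has a row of H3K27ac peaks out to 29.4 kb, a lone weak one (2.53) at 52.1 kb and a p300 peak at 20.8 kb. No SUZ12 or H3K27me3 peak is present.

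Among 122 further genes of the acetylation machinery in 6 lists, H3K4me3 was called at 118 starts, H3K27ac at 117, EZH2 at 106, p300 at 103 and N-MYC at 90, with SUZ12 at 5 and H3K27me3 at 8. Of genes with H3K4me3 at the start, 93.3% had H3K27ac, 73.7% EZH2, 76.5% p300, 64.1% N-MYC, 10.1% SUZ12 and 15.3% H3K27me3. Over all genes these shares were 51.6%, 45.7%, 39.3%, 32.9%, 13.6% and 25.8%, with 51.0% for H3K4me3. The set of all 5 active lists without a Polycomb feature was met by 81 of 122 (66.4%), by 4 of the 8 members and by 24.4% of all genes. The set requires H3K4me3, so all 5344 genes with it are among the 11152 with H3K4me3 at the start. The partners of class I deacetylases had EZH2 at 28 of 29 and N-MYC at 24 of 29, with the highest N-MYC values at Mbd3 (12.9), a NuRD subunit, and Ing2 (12.1), a Sin3 subunit. SAGA and ATAC partners had N-MYC at 15 of 18, led by Taf5l (15.9) and Zzz3 (15.4), and TIP60 partners at 10 of 13, led by Morf4l2 (14.9) and Morf4l1 (11.2). These leading values are the highest of each list, and the median over called partners was 7.27 for class I deacetylases, 6.75 for SAGA and ATAC and 7.05 for TIP60. The catalytic members had 6.12 at Kat2a and Hdac3, 4.87 at Kat2b and 4.32 at Hdac2, with no call at Kat5 and Hdac1.

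Other acetyltransferases had N-MYC at 11 of 14, led by Kat14 (14.2) and Naa40 (8.59), and acetyl-lysine readers at 25 of 33, led by Smarca4 (14.2), the BRG1 ATPase of SWI/SNF, and Mllt1 (14.0). Among the related gene lists, the remaining deacetylases had the smallest N-MYC and EZH2 shares, at 5 of 15 (33.3%) and 9 of 15 (60%). Over all protein-coding genes these shares were 32.9% and 45.7%, and over genes with H3K4me3 at the start 64.1% and 73.7%. The deacetylase shares were thus below those of genes with H3K4me3 but not below those of all genes. Whether so few genes differ from either background was not tested. Sirt5 (10.1) and Sirt1 (9.90) had the highest N-MYC values of the remaining deacetylases. Polycomb peaks were found at the reader genes Cecr2, Baz2b, Dpf1 and Dpf3, with SUZ12 from 9.65 at Dpf3 to 15.1 at Dpf1, and at Hdac11 (SUZ12 3.17, H3K27me3 6.81). These 5 genes had EZH2 from 3.33 at Hdac11 to 20.0 at Cecr2 and neither N-MYC nor p300. Kat6b (5.42), Tada2a (4.47) and Tada2b (8.84) had H3K27me3 without SUZ12, along with the 5 active lists.

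Patterns over the 7 lists were compared by Euclidean distance in log2(1 + fold enrichment), with 0 where nothing was called. The genes nearest to Ep300 were Bcl2l13 (distance 0.28) and Ankrd49 and Mre11a (0.32 each, reading the same peaks). Kat2a was nearest to Prss57 (0.18), Pwwp2b (0.25) and Gm15246 (0.32), and Kat5 to Zfp825 (0.20), Igsf23 (0.28) and Pold4 (0.31). Hdac1 was nearest to Tbc1d31 (0.15), Zbtb24 (0.16) and Brwd3 (0.21), and Hdac2 to Adora2a (0.16), Pam (0.24) and Micu3 (0.27). All 15 had the same set of called lists as the member they were nearest to. Scoring an uncalled list as 0 makes this likely by construction, so it is no separate result.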

How the data were processed

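ChIPmentation libraries of mouse thymic lymphoma cells were analysed from 7 peak lists, 1 per antibody. Per the submitters' processing notes, FastQC, Bowtie2, SAMtools, MACS2 and deepTools were used with builds mm10 and GRCm38. Versions, controls, filters and pooling are not given in the sources used here. The fold enrichment is a linear ratio per peak as deposited by the authors. Significance was deposited on the −log10 scale (p-value and q-value), and each list ends near a q-value of 0.01. A whole-number score, deposited by the authors, was not used. A missing peak means no call was made.

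Peaks on 21 chromosomes were intersected with RefSeq genes of GRCm38.p6 in Python 3.11.15 with pandas 2.3.3 and NumPy 2.4.6. A peak counted when it overlapped by at least 1 bp the start, plus or minus 1 kb, or the gene body. Starts came from the RefSeq promoter table for 17491 genes (6 members), with all listed starts read, and both gene ends were read for the other 4392. Where several peaks met a window, the strongest was taken. Named related genes were those with a Polycomb peak and the 2 of highest N-MYC value per list; for pattern likeness, the 3 nearest genes of Ep300 and of members with another set of lists. The members and lists were chosen with earlier results of these data known. The overlap steps were tested on simulated data. The number of reads is not given, so depth and counting error are unknown. Alternatives changed the window, overlap, threshold, list length and reading of the start.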

Additional observations from a re-analysis of the deposited data

How the results depend on the processing

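The 7 counts of members at the start stayed within 1.5 times the reported count in all 56 alternative values: windows of 500 bp and 2 kb, summit in the window, a q-value of at most 1e-05, a fold enrichment of at least 4, lists cut to 9798 peaks, either gene end for every gene, and listed starts only. The last pair was chosen after seeing the data. The SUZ12 and H3K27me3 counts were 0 in each. Counts of 6, 7 or 8 among 8 members could not rise past 1.5 times, so for those lists only a fall could show. With listed starts only, 6 members remained and EZH2 was called at 4 of 6, at the limit. The members called also changed: reading either gene end added Kat5 for EZH2 and N-MYC and dropped it for p300. In gene bodies, 5 of 35 alternative values moved further. With the summit required inside the body, N-MYC was met in 3 members and p300 in 2. With 1 kb trimmed from the start side of the annotated gene, EZH2 was met in 2, N-MYC in 0 and p300 in 3. Part of these were start peaks that reach past the trimmed stretch or, at Kat5, lie beyond it. Of 42 values for the related genes, 1 moved: with the summit in the window, H3K27me3 was called at 4 instead of 8. Of 70 alternative fold enrichments, 8 differed at all from the reported value, each at Hdac1 or Hdac3: 6 with the 2 kb window, which reaches peaks at Marcksl1 and Diaph1, and 2 with the 500 bp window (Hdac3, p300 3.12 and H3K27ac 8.45). At 2 kb, Hdac1 read 9.46 for EZH2 and Hdac3 read 38.8 for H3K4me3. No paired analysis was possible because each antibody has 1 library and the results come from no test. The unknown depth limits what a missing call can show.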

Other observations

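The neighbours of these genes account for several peaks that a wider reading would add. At Kat2a, an N-MYC peak of 4.27 lay 1962 bp beyond the lower gene end, at Dhx58. At Crebbp, H3K4me3 (20.7) and H3K27ac (15.8) peaks at Trap1 lay 2889 and 2037 bp beyond the lower end, with no EZH2, N-MYC or p300 peak within 3 kb of that end. At Hdac3, the peaks at Diaph1 included EZH2 (7.81), N-MYC (9.67) and p300 (5.77), each above the value at the upper end of Hdac3, and a further N-MYC peak of 4.36 lay 1101 bp beyond that upper end, at Rell2.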
